A study of Rattus norvegicus with 24 samples.

Results

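The left ventricle of sham-operated rats was compared between 7 days and 1 day after surgery. The 12 arrays titled as sham were chosen by their titles, 6 for each day, out of 24 arrays in the series. Each array held total RNA from 1 sample of the left ventricle with septum of a sham-operated rat (Rattus norvegicus). The other 12 arrays held left ventricle and septum without the infarct zone, after an operation that produced a myocardial infarction (MI), again with 6 arrays for each day. The labels name no strain, sex or age for the rats. Titles and keywords put 6 of the sham samples at 1 day, although the longer description of each of those 6 says 7 days; the title was followed. Whether the 6 arrays of a group came from 6 rats is not stated, and the p-values here reflect only how far these samples spread, some of which may be technical.

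A sham operation takes an animal through the anaesthesia and surgery of the disease model without the injury itself, and serves as its control. Surgery of this kind brings an early acute-phase, inflammatory and adrenergic response, followed by wound healing over the next days. The left ventricle holds cardiac muscle cells together with fibroblasts, endothelial cells, vascular smooth muscle cells and resident macrophages. In RNA from whole tissue, fewer cells of a type and less RNA per cell cannot be told apart.

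The table held 1185 probes under IDs that begin with R or RG, and 0 of these IDs matched the rat gene table used here. The values are therefore given by probe ID, no gene, pathway or cell type could be named, and the labelled tissue could not be checked against its markers. Intensities were compared on the log2 scale, and blank cells were treated as missing because the rule behind them is not given. Probe R371, which was exactly 100 on every array, was left out. Each array was shifted so that 94 probes, those with a value on all 24 arrays, had the same mean log2 intensity. The result is called scaled intensity. A probe was tested when at least 3 arrays of each day listed it, and called changed at an adjusted p under 0.05 in limma (Benjamini-Hochberg over all tested probes).

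Of the 12 sham arrays, 3 stood apart before any comparison was made. Arrays A507, A508 and A509, all from day 1, listed 140, 173 and 196 probes. The other day 1 arrays, A505, A535 and A536, listed 432, 420 and 558, and the 6 day 7 arrays listed 403 to 683. On the deposited scale the shared probes had a geometric mean of 120.9 on A507, 172.7 on A508 and 163.1 on A509, against 299.6 to 324.5 on the other day 1 arrays and 244.4 to 304.8 at day 7. Over its own listed probes, however, each of the 12 sham arrays had a median deposited intensity of 92.2 to 101.7. The level of the shared probes on this scale thus depends on which other probes an array listed, and is not a separate sign. The number of listed probes was 502.2 ± 99.6 (SD, n = 6) at day 7 and 319.8 ± 172.4 (SD, n = 6) at day 1. The difference of 182.3 probes did not pass a two-sided exact permutation test (p = 0.0671), and it passed only when A536 was left out (230 probes, exact permutation p = 0.0130). Without A507 to A509 the difference was 32.2 probes (exact permutation p = 0.667, with 0.0119 the smallest p that 6 against 3 arrays allow). The main results below are given with and without these 3 arrays.

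**Figure D1:**
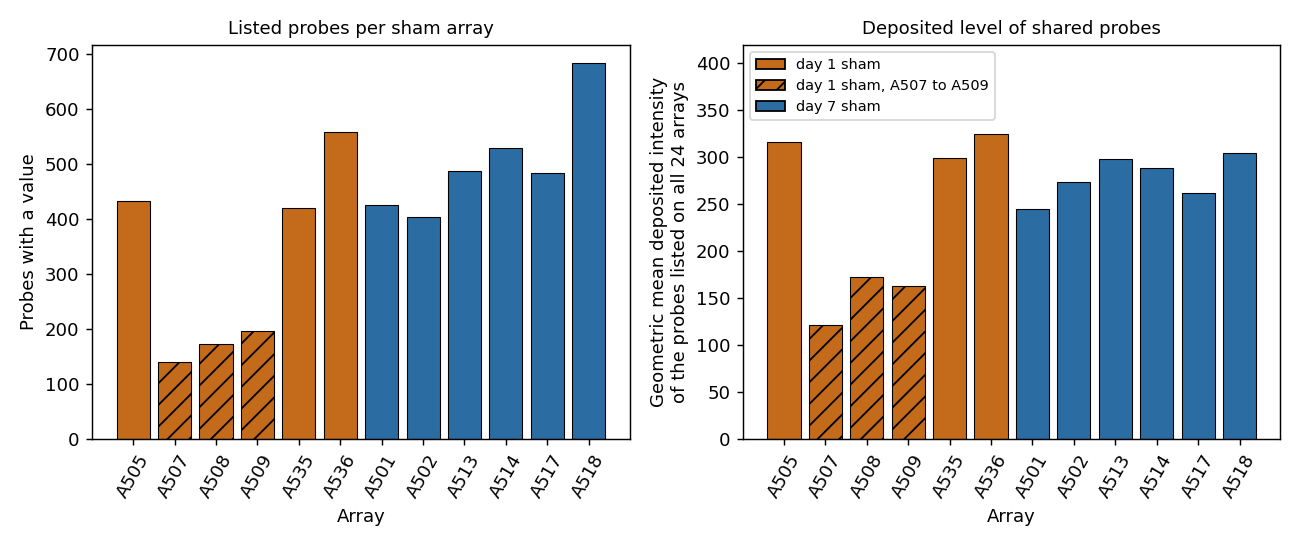
Number of probes with a value (left) and geometric mean deposited intensity, in the authors' units, of the 94 probes listed on all 24 arrays (right), with 1 bar for each sham array. Day 1 arrays A507 to A509 are hatched, and they sit lowest in both panels, at 140 to 196 probes and at intensities of 120.9 to 172.7.

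The shift brought the arrays to a common level but left a difference in spread. Over the 94 shared probes, the mean SD of log2 scaled intensity between arrays was 0.27 at day 1 and 0.17 at day 7. It was 0.18 over the 3 day 1 arrays other than A507 to A509. As deposited, the day 1 value was 0.64. Across the shared probes, which are not independent replicates, the log2 values of A507 to A509 correlated with each other at r = 0.91 to 0.92, with the other day 1 arrays at 0.81 to 0.88 and with the day 7 arrays at 0.72 to 0.82. The other day 1 arrays correlated with each other at 0.80 to 0.90 over only 3 pairs (median 0.89). Their correlations with A507 to A509 lay within that range, with a lower median of 0.83. With the day 7 arrays, the other day 1 arrays correlated at 0.77 to 0.93, and the day 7 arrays among themselves at 0.82 to 0.97.

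Which probes were listed at all also differed between the days. Of the probes other than R371, 807 had a value on at least 1 sham array, and 106 had one on all 12. All 6 day 7 arrays listed 244 probes, of which 207 were also listed by each of A505, A535 and A536. Listing on day 7 arrays alone applied to 139 probes, and for 8 of these it was on 5 or 6 arrays. Listing on day 1 arrays alone applied to 37 probes, 35 of them on a single array and 2 on 2 arrays. Thus 222 probes had at least 3 values at day 7 but under 3 at day 1 and could not be tested, against 12 in the other direction. Why a cell is blank is unknown, so these counts describe the table and not expression.

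With all 12 sham arrays, and the spread estimated together with the MI arrays, 24 of 322 tested probes (7.45%) were called between the days. Of these, 21 (6.52%) were higher at day 7 and 3 (0.932%) were lower. The 21 rose by 1.31-fold to 1.89-fold, with a median of 1.59-fold, from geometric means of 40.2 to 192.3 at day 1 to 65.3 to 252.8 at day 7. Their adjusted p-values ran from 0.00976 to 0.0410 in limma, and the next probe missed the threshold at 0.0505. Without A507 to A509, 0 of 305 probes were called (smallest adjusted p = 0.0849 in limma), while 56 (18.4%) had an unadjusted p under 0.05, 51 of them higher at day 7. Of the 24 probes, 22 could still be tested, 22 kept their direction and 17 had an unadjusted p under 0.05. Over these 22, the median size of the log2 difference was 0.65 with all arrays and 0.48 without the 3. It became smaller for 16 probes and larger for 1. For 5 that none of the 3 arrays listed it did not move, so their direction could not change. The 24 were called on values that include those of the arrays kept, so these counts describe them and do not test them.

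The number of called probes depended on single arrays at both days. It was 10 without A507, 12 without A508 and 10 without A509. Among the day 7 arrays it was 13 without A513, 10 without A514, 10 without A517 and 15 without A518, but 30 without A501 and 33 without A502. It was 46 of 192 tested probes without A505, 33 of 189 without A535 and 56 of 194 without A536, where many probes were left with under 3 day 1 values and out of the test. With the sham arrays alone in the fit it was 14, of which 11 were among the 24. An exact permutation test of each probe over the sham arrays called 0 probes (smallest adjusted p = 0.0871), with 78 of 322 at an unadjusted exact p under 0.05, and 22 of the 24 among them. The smallest p that 6 against 6 or 6 against 5 arrays allow is 0.00216, which 8 probes reached. With 14 probes at this p they would have passed, and at higher p-values more probes would have been needed. A probe with 3 day 1 values cannot go below 0.0119. These 0 calls therefore do not show that no probe differed.

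**Figure D2:**
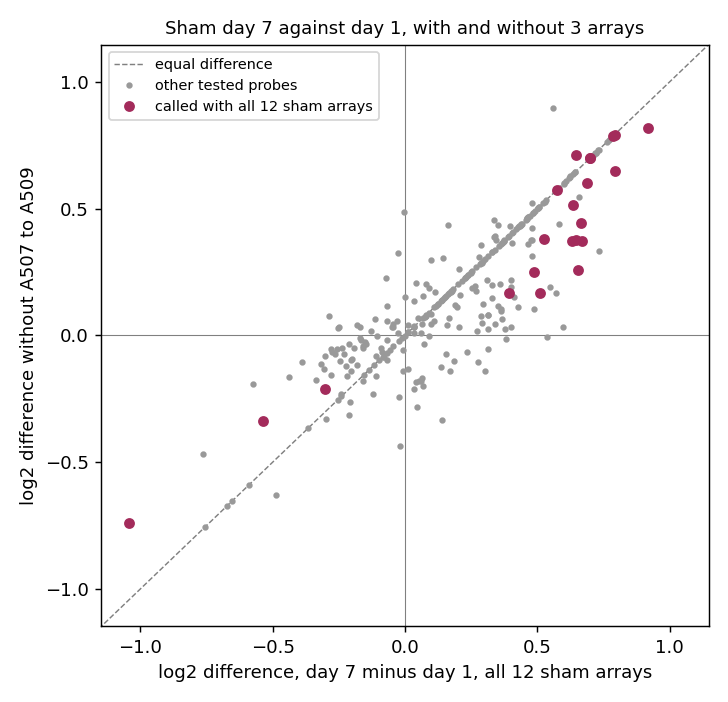
Log2 difference (day 7 minus day 1) of each probe tested both ways, with all 12 sham arrays on the horizontal axis and without A507 to A509 on the vertical axis. The dashed line marks equal differences. Larger points are the 22 of the 24 called probes that could be tested both ways. All 22 keep their sign, and 16 lie closer to 0 without the 3 arrays.

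By the rule for naming probes, the highest folds among called probes upward belonged to R345 and R058. R345 had day 7 values of 74.0 at the lowest, 148.5 at the median and 160.5 at the highest, and 4 day 1 values of 45.6, 55.8, 76.5 and 117.0. The day 7 array A502, at 74.0, lay below 2 of the day 1 values, so the groups overlapped. R345 rose 1.89-fold (log2 difference 0.92, SE 0.26, limma adjusted p = 0.0372). Without A507 to A509, of which A509 alone listed it, the log2 difference was 0.82 (SE 0.29, adjusted p = 0.137). The call was lost in 8 of 12 fits that left out a single array, where the difference ranged from 0.72 to 1.17 and the adjusted p from 0.00493 to 0.0825.

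R058 had day 7 values of 199.9 at the lowest, 250.8 at the median and 261.1 at the highest, and day 1 values of 104.2, 114.0, 133.8 and 197.7. The groups did not overlap, but the day 1 array outside A507 to A509 that listed it, A505 at 197.7, lay just under the lowest day 7 array, A501 at 199.9. R058 rose 1.83-fold (log2 difference 0.87, SE 0.18, limma adjusted p = 0.00976). Without the 3 arrays it had 1 day 1 value and could not be tested.

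The 3 probes that fell were R630, R689 and RG019, the last being named after its values were seen. R630 had day 1 values of 373.8 at the lowest, 529.0 at the median and 799.9 at the highest, and day 7 values of 174.8, 266.9 and 365.0 in the same order. Every day 1 array lay above every day 7 array. The log2 difference of R630 was -1.04 (SE 0.18, limma adjusted p = 0.00123), with the smallest p of the comparison, and it was called in all 12 fits that left out a single array. A507 to A509 held the 3 highest values, at 575.4 to 799.9. Without them the groups still did not overlap, and the log2 difference was -0.74 (SE 0.19, adjusted p = 0.0977), which did not pass.

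R689 had day 1 values of 267.6 at the lowest, 347.6 at the median and 478.6 at the highest, and day 7 values of 169.2, 258.6 and 295.8. The groups overlapped through A535 and A536 at day 1 and A513, A517 and A518 at day 7. R689 fell by 0.54 on the log2 scale (SE 0.14, limma adjusted p = 0.0224). The log2 difference was -0.34 without A507 to A509 (SE 0.15, adjusted p = 0.236).

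RG019, the brightest of the named probes, had a day 1 median of 565.0 (532.2 to 668.1) and a day 7 median of 466.9 (442.3 to 535.1). A single day 7 array, A502, reached into the day 1 range. It fell by 0.30 on the log2 scale (SE 0.088, limma adjusted p = 0.0372) with the shift used here, but the sign turned as deposited (0.054), with median centring (0.055) and with quantile normalization (0.11), none of which passed. It was called in 5 of 12 fits that left out a single array (adjusted p from 0.00755 to 0.0800). Leaving out A507 to A509 gave -0.21 (SE 0.091, adjusted p = 0.226).

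Where no probe was called, as without A507 to A509, the rule named the smallest p-values in each direction. These belonged to R306 and RG487 upward. R306 had day 7 values of 86.9 at the lowest, 94.0 at the median and 106.0 at the highest, and day 1 values of 47.4, 62.8, 64.5 and 69.1, with no overlap. Its log2 difference was 0.65 (SE 0.16, limma adjusted p = 0.0224) with all arrays, which passed, and 0.71 (SE 0.17, adjusted p = 0.0849) without the 3, which did not. A509 was the only one of the 3 arrays to list it, and held its highest day 1 value.

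RG487 was listed by none of A507 to A509. Its day 1 values were 38.0, 40.4 and 56.1, and its day 7 values were 66.4 at the lowest, 71.0 at the median and 80.1 at the highest, again with no overlap. The log2 difference was 0.70 (SE 0.17, limma adjusted p = 0.0224) in the fit with all arrays and 0.70 (SE 0.16, adjusted p = 0.0849) without the 3. Its unadjusted p was 0.000692 with all arrays and 0.000557 without the 3, so the higher adjusted p came with the larger p-values of other probes.

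Downward, the rule named R630 again and R105. R105, also unlisted on the 3 arrays, had day 1 values of 72.39, 72.42 and 79.8 and day 7 values of 28.5 at the lowest, 42.5 at the median and 66.3 at the highest. All day 7 values lay below the day 1 values. Its log2 difference was -0.75 (SE 0.25), with a limma adjusted p of 0.0662 with all arrays and 0.135 without the 3, so it passed in neither.

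**Figure D3:**
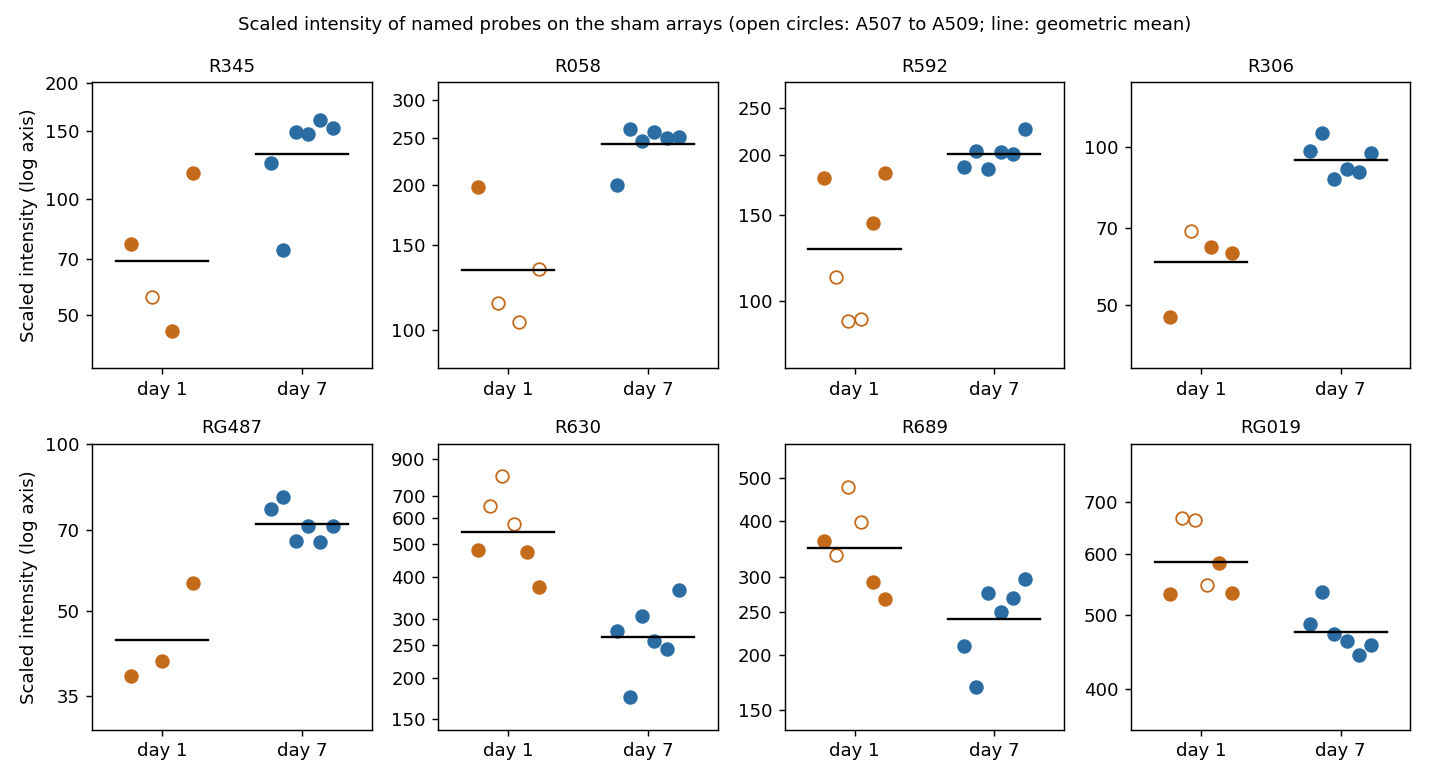
Scaled intensity (log axis, authors' units after the shift) of 8 named probes, with 1 point for each sham array that listed the probe and a line at the geometric mean of each day. Open circles are A507 to A509. For R058, R592 and R630 the open circles lie farthest from the day 7 values, and the filled day 1 points also lie outside the day 7 range. For R306 the day 7 values lie above the open and filled points, and for RG487, which has no open circle, above the filled points.

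Among the 21 probes that rose, the day 1 and day 7 values did not overlap for 12. Over all 322 tested probes, 31 (9.63%) had every day 7 value above every day 1 value and 4 (1.24%) had every one below. Of the 3 that fell, 1 did not overlap. With A507 to A509 left out, 10 of the 19 risen probes still tested did not overlap, and over all 305 probes 29 (9.51%) were separated upward and 7 (2.30%) downward. The called probes were chosen on the same values, so these counts describe them and do not test them.

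By title number the day 1 arrays were put into 2 runs, A505 to A509 and A535 to A536. The numbers A501 to A520 are consecutive, and each change of day among them starts a new run. A further run was started at A517, where the day does not change, while A505 to A512 were kept as 1 run. The labels do not give this division. That no run held both days therefore follows from how the runs were drawn, and run and day cannot be told apart. Each day 1 subset was set against the day 7 mean. The risen probes lay below that mean in 19 of 21 cases on A505, in 16 of 16 listed cases on the mean of A507 to A509, and in 20 of 20 on the mean of A535 and A536. Over all tested probes 69.7%, 58.1% and 62.2% lay below it in the same order. The median distance of the risen probes below the day 7 mean was 0.46 on A505, 0.90 on A507 to A509 and 0.53 on A535 and A536, in log2 units. Over all tested probes it was 0.22, 0.20 and 0.11 in the same order. The 3 fallen probes lay above the day 7 mean in each subset, as did 30.3%, 41.9% and 37.8% of all tested probes. The probes were called on these same arrays, so the counts describe them and are no test of whether the subsets are alike. For a further fit, the runs of sham and MI arrays were A501 to A504, A505 to A512, A513 to A516, A517 to A520 and A535 to A538. With these runs entered as a random block (estimated correlation 0.32), 0 of 322 probes were called (smallest limma adjusted p = 0.0955) and 66 had an unadjusted p under 0.05.

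Differences between the days varied with how bright a probe was. Over all 322 probes 230 were higher at day 7, and the median log2 difference was 0.22. With the probes in 4 equal parts by mean scaled intensity, it was 0.29 in the dimmest part (24.5 to 73.4), 0.29 in the next (75.1 to 108.4), 0.35 in the upper middle part (110.7 to 208.4) and -0.079 in the brightest (208.5 to 527.1). The upper middle part held 11 of the 21 risen probes and the brightest held all 3 that fell. The medians without A507 to A509 were 0.31, 0.28, 0.11 and -0.048, so that of the upper middle part moved most. As deposited, with all arrays, they were 0.18, 0.25, 0.53 and 0.27, so the order of the parts and the sign of the brightest depended on the scaling. The brightest part also held 66 of the 94 probes that set the shift, and the upper middle part held 27. The shift removes the average difference of those 94 altogether, by construction. Their median was -0.044, against 0.31 in the other 228 probes, and with the 3 arrays left out these were -0.0020 and 0.25.

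How often a probe was listed at day 1 went with its difference as well. The median was 0.35 over the 134 probes listed on 3 day 1 arrays, 0.32 over the 50 on 4, 0.28 over the 30 on 5 and -0.024 over the 108 on all 6. Without A507 to A509 the medians of the same probes that were still tested were 0.35, 0.22, 0.046 and -0.0020. The share called was 4.48%, 10%, 10% and 9.26% in the same order. Of the 106 probes listed on all 12 sham arrays, 10 (9.43%) were called, 7 of them higher. When these 106 were tested on their own, with p-values adjusted over them alone, 22 were called, 12 higher and 10 lower. Without the 3 arrays 0 of these 106 passed when adjusted the same way (smallest limma adjusted p = 0.102), and 6 had an unadjusted p under 0.05, 3 of them higher. The part of blanks, of brightness and of the shift in the differences was not tested.

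**Figure D4:**
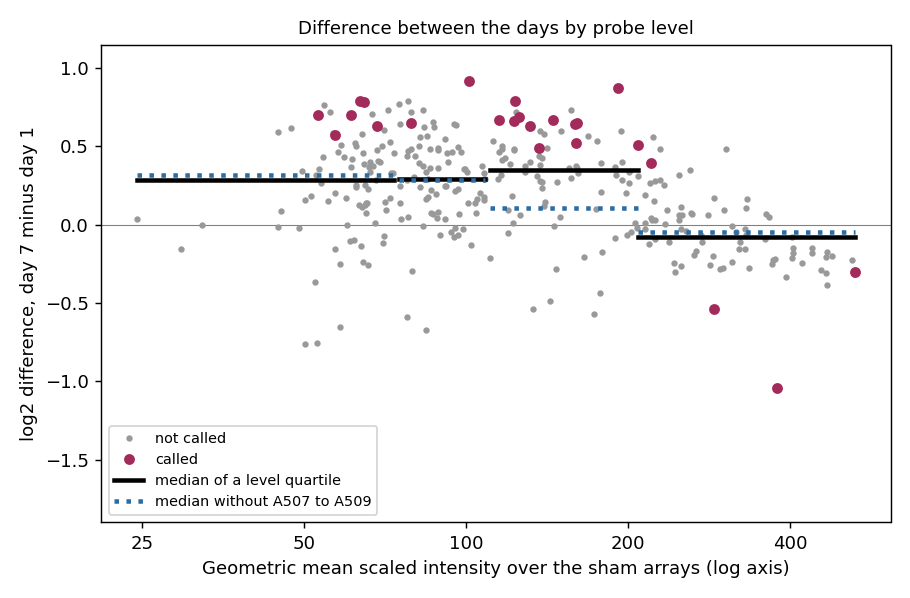
Log2 difference (day 7 minus day 1, all 12 sham arrays) against the geometric mean scaled intensity of each of the 322 tested probes (log axis). Black lines are the medians of 4 equal parts of the probes by level and dotted lines the same without A507 to A509. The medians are 0.29, 0.29, 0.35 and -0.079 from dim to bright.

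The sham difference between the days was compared directly with that after MI, in which 64 of 354 probes (18.1%) were called. The 2 comparisons share no arrays, but sham and MI arrays of a day come from the same runs of title numbers and share the shift and the estimate of spread. Of the 24 probes called in sham, 19 could be tested in MI, where 18 had the same sign, against 81.5% of the 275 probes tested in both. In MI, 10 of the 19 were called in the same direction, against 18.9% called in either direction over those 275. The interaction, sham minus MI, was called for 0 of 275 probes in limma (smallest adjusted p = 0.723), with 12 (4.36%) at an unadjusted p under 0.05. It was called for 0 of 265 with A507 to A509 left out, where the smallest adjusted p was 0.319 and 19 probes had an unadjusted p under 0.05. A difference between the operations in the change from day 1 to day 7 was thus not detected, which does not show that the changes were alike.

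The named probes of the interaction show what the sham arrays contribute. R592 was called in sham, at 90.6 to 183.3 (median 128.2) on day 1 and 186.9 to 226.0 (median 201.6) on day 7, with no overlap. A507 to A509 held 90.6 to 111.9 and the other day 1 arrays 144.6 to 183.3. Its sham difference was 0.65 (SE 0.15, limma adjusted p = 0.00976) and 0.26 without the 3 arrays (SE 0.11, adjusted p = 0.196). In MI its median was 217.4 at day 1 and 212.8 at day 7, a log2 difference of -0.00030 (SE 0.15, adjusted p = 0.998). The interaction value was 0.65 (SE 0.21, adjusted p = 0.723), and 0.26 (SE 0.14, adjusted p = 0.660) without the 3 arrays.

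R364 went in sham from a median of 265.2 (219.5 to 300.1) to 254.1 (230.6 to 280.0), with a log2 difference of -0.043 (SE 0.11, limma adjusted p = 0.800) that turned to 0.043 without the 3 arrays. In MI it fell by 0.48 (SE 0.11, adjusted p = 0.00397). The interaction value was 0.44 (SE 0.15, adjusted p = 0.723), and 0.52 (SE 0.16, adjusted p = 0.319) without the 3 arrays. In the other direction, R306 differed by 1.32 between the days in MI (SE 0.18, adjusted p = 9.91e-05) beside 0.65 in sham, and its interaction value was -0.67 (SE 0.23, adjusted p = 0.723), or -0.61 (SE 0.24, adjusted p = 0.441) without the 3. R506 had sham medians of 168.7 (64.3 to 216.7) on 5 day 1 arrays and 160.1 (88.1 to 218.6) on 6 day 7 arrays. The day 7 median was the lower of these, while the difference of mean log2 values was positive, at 0.047 (SE 0.28, adjusted p = 0.925), and it was -0.28 (SE 0.28, adjusted p = 0.579) without the 3 arrays. In MI R506 rose by 1.03 (SE 0.27, adjusted p = 0.00941). Its interaction value was -0.99 (SE 0.39, adjusted p = 0.839), or -1.32 (SE 0.36, adjusted p = 0.319) without the 3.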

How the data were processed

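The deposited table held 1 intensity per probe and array, on a linear scale scaled by the authors to a median near 100; scanner, background treatment, scaling target and the rule for blanks were not given in the sources used here. Columns of other series numbered 0. Intensities were put on the log2 scale with no constant added, R371 was dropped, and each array was shifted by the mean of the 94 probes listed on all 24 arrays. Counts of listed probes leave out R371. limma 3.58.1 in R 4.3.3 (lmFit, moderated variances as in eBayes) was fitted with 1 mean per group to all 24 arrays. Benjamini-Hochberg adjustment was over tested probes. The fit was tested on simulated data with independent noise of equal spread in all groups. Those data cannot show how it behaves with arrays that stand apart or with correlated runs. Sham groups had 6 arrays each, and their number limits the precision. Named probes were up to 2 upward and 2 downward per contrast, by fold among called probes above the lower quartile of level, or by p where none was called. All of the 3 fallen probes were named as well. The samples, shift, lists and tests were chosen with earlier results of these data known. Gene lists drawn up for this tissue could not be applied, since IDs were not paired with names. Alternatives changed the scaling, the minimum of listed values, an added constant of 16, a filter on the dimmest 25%, the arrays in the fit and the treatment of runs. Leaving out A507 to A512 or A535 and A536, the exact test of each probe and the test of fully listed probes without A507 to A509 were added after seeing the data.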

Additional observations from a re-analysis of the deposited data

Results flagged for a closer look

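Of 24 groups of 4 to 6 values examined (counts of listed probes, levels of the shared probes and the scaled intensities of the named probes), 1 held an array far from the others, where chance gives about 1 in 20. R058 was at 199.9 on the day 7 array A501, against 247.0 to 261.1 on the other 5 day 7 arrays. It still lay above the highest day 1 value of 197.7.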

How the results depend on the processing

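The count of 24 called probes fell to 1 (higher) and 0 lower as deposited, with quantile normalization and with median centring, to 14 with the sham arrays alone in the fit, and to 0 with runs as a random block, with the exact test per probe, without A507 to A509 under each of 3 scalings or over the 106 probes listed on all 12 sham arrays, and without A507 to A512. It was 69 of 140 tested (39 higher, 30 lower) without A535 and A536, and 10 to 56 with single arrays left out. The cause was not tested. With the other 7 alternatives it was 19 to 28. The median difference of 0.22 was 0.31 with quantile normalization, 0.14 without A507 to A509 or A507 to A512, 0.11 with the shift taken from the arrays then left, 0.057 without A535 and A536, -0.022 as deposited without A507 to A509, -0.024 with at least 6 listed values, and 0.11 to 0.24 with single arrays left out. The mean SD at day 1 went from 0.27 to 0.64 as deposited. The difference in listed probes was 146.2 to 230 with single arrays left out. The interaction gave 0 calls in every alternative run. Signs turned for 3 named probes. RG019 was at 0.054 as deposited, 0.055 with median centring and 0.11 with quantile normalization. R364 was at 0.31, 0.31 and 0.42 in the same order, 0.043 without A507 to A509 or A507 to A512, and 0.014 with the shift from the arrays left. R506 was at -0.28 without A507 to A509 or A507 to A512, -0.31 with the shift from the arrays left, -0.46 as deposited without A507 to A509, -0.011 with the random block, and -0.25 to 0.20 with single arrays left out. R364 and R506 passed in none of these. No paired analysis was possible because the labels give no replicate numbers shared between the groups.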

Other observations

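Besides R371, 27 deposited values on the sham arrays were exactly 100, spread over 23 probes. There were 1 to 4 such values on each array except A507, which had 6 among its 140 listed probes. Among them were R306 on A513 (scaled intensity 86.9, its lowest day 7 value) and R105 on A536 (79.8, its highest day 1 value). The origin of the values of exactly 100 was not given in the sources used here.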
